A study of Mus musculus with 13 samples.

Results

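Interferon-induced and major histocompatibility complex (MHC) class I genes were followed across 13 microarrays of mouse brain hemispheres. The set held 6 genes, Ifitm3, Ifit3, Lgals3bp, Gbp7, B2m and H2-K2. They were chosen by their signals on these same arrays, with the differences between genotypes and treatments in view, so all their differences are given as descriptions without a test. Each gene was read by the probe sets (groups of short probes on the array) that the platform annotation assigns to that gene alone. This gave 6 of the 12422 gene probe sets, 1 per gene.

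The arrays came from R6/2 and wild type mice, and R6/2 mice carry exon 1 of human huntingtin with an expanded CAG repeat as a transgene, under the human huntingtin promoter, as a model of Huntington's disease. The titles gave 3 arrays of R6/2 mice with the triple treatment, 4 of untreated R6/2 mice, 3 of wild type mice with the triple treatment and 3 of untreated wild type mice. The triple treatment was tacrine, a cholinesterase inhibitor, at 2.7 mg/kg per day, moclobemide, a monoamine oxidase A inhibitor, at 10 mg/kg per day, and creatine, which feeds the phosphocreatine energy buffer, at 1% in mashed food. Tacrine started at 5 weeks of age, and a harvest age, 8 weeks, was stated for 1 untreated wild type sample. The sample descriptions list the drugs for all 13 samples, so treatment was read from the titles. The labels do not state that each array is a separate animal, so the p-values measure the spread between these samples, which may be technical.

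Interferons are secreted proteins, and cells release type I interferon on sensing foreign or misplaced nucleic acid. Type I interferon acts through JAK kinases on a complex that contains IRF9 and binds the interferon-stimulated response element (ISRE) near its target genes, and interferon gamma acts on gamma-activated sites (GAS). MHC class I molecules present peptides from inside the cell to CD8 T cells, and in the brain, where their level is normally low, both neurons and microglia can make them after interferon exposure.

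Members of the set are known interferon targets, and stretches near the start of transcription are shown because most of them hold the core of an ISRE. The promoter table of RefSeq (mouse build GRCm38.p6) has an entry for 5 of the 6 genes. Each entry was searched on both strands from 250 bases before the start to 50 bases after it. The motif GAAANNGAAA, the core of an ISRE, was in 4 of the 5 promoters, against 3.44% of the 32851 promoters in the table and 3.13% of the 8408 promoters of genes with a probe set of their own. Of 63 promoter entries of other interferon and MHC genes that passed the filter described below, 11 (17.5%) held it. Lgals3bp had no match to it, and held GAAANNNGAAA, a form with a gap wider by a base that was searched after the sequences had been seen. That wider form was in 2.75% of all promoters and also in Ifit3, where it overlaps an ISRE core. The GAS motif TTCNNNGAA was in Ifitm3, overlapping the second of its ISRE cores, and at 2 places in Gbp7, against 8.30% of all promoters and 17.5% of those 63. A match is only a match of letters, and binding was not measured. In the sequences below, written 5′ to 3′ on the strand of the gene, capitals mark matches to GAAANNGAAA or GAAANNNGAAA on either strand. The first is the 30 bases from position 2 to 31 after the Ifitm3 start (chr7:141010714-141010743, minus strand), and the others run from 250 bases before the start to the base before it, for Ifit3 (chr19:34583279-34583528, plus strand), Lgals3bp (chr11:118401960-118402209, minus strand), Gbp7 (chr3:142530086-142530335, plus strand) and B2m (chr2:122147437-122147686, plus strand).
Ifitm3: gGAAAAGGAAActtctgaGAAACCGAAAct
Ifit3: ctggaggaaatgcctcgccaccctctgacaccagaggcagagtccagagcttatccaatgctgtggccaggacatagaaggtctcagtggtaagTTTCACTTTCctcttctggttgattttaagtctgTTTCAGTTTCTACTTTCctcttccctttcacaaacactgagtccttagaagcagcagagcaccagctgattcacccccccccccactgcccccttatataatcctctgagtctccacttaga
Lgals3bp: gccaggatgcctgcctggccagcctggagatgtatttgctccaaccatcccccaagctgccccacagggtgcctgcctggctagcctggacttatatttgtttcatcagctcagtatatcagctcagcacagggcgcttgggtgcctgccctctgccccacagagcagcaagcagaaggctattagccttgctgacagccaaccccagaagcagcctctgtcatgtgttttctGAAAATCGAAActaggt
Gbp7: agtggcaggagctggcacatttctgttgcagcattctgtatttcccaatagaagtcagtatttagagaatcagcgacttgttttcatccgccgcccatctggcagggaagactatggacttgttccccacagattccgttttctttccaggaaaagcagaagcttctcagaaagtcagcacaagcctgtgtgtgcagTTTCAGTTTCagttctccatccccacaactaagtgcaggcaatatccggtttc
B2m: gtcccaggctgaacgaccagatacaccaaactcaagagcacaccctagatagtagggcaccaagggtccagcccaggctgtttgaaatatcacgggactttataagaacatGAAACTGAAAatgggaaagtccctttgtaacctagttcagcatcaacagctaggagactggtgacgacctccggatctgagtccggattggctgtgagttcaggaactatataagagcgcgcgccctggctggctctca
Both ISRE cores of Ifitm3 lie just past the start, and those of Ifit3 begin at 156 and 122 bases before it. The cores of Gbp7 and B2m begin 53 and 139 bases before the start.

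The values are array signals on a linear scale, comparable between arrays for a probe set but not between probe sets. Array medians lay between 39.6 and 45.1, and precision is limited by how few arrays a group holds. Untreated R6/2 arrays 3 and 2 stood apart on the first principal component (33.9% of the variance), with scores of 45.7 and 25.4 against at most 4.09 for any other array, so results are also given without them. All 66 control rows of untreated R6/2 arrays 2, 3 and 4 equalled, within 0.05, 1.2 times those of another R6/2 array (treated 1, treated 3 and untreated 1), while at most 123 of the gene rows did so. Treated R6/2 array 1 and untreated R6/2 array 4 carry 1 lot label between them; it is the number in the title of the untreated array, and the title of the treated array has another number, so title and label of treated array 1 disagree. In whole hemispheres, fewer cells of a type and less RNA per cell cannot be told apart.

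All 6 probe sets passed the filter on low signal, which was set on the mean over all 13 arrays, and no member value lay at the floor of 3.1. H2-K2 had wild type means of 16.6 with treatment and 21.9 without, under the filter signal of 24.88, so it passed through its R6/2 arrays. The mean of Ifit3 in treated wild type mice, 22.9, was under that signal as well. Differences are on the log2 scale with their standard error (SE) from a limma fit over the 13 arrays. Averaged over treatment, R6/2 was above wild type for all 6 genes, with a median difference of 0.82 against 0.04 over the 7453 probe sets tested. The smallest of these, 0.23 (SE 0.16) for Gbp7, averages a positive difference in untreated mice (0.88) and a negative one in treated mice (-0.42). In 3 of the 6 (Ifitm3, Ifit3 and Lgals3bp) every R6/2 array lay above every wild type array, which held for 1.44% of all probe sets tested. In untreated mice the groups were apart in 4 of the 6, with R6/2 higher, against a background of 13.9%. In treated mice they were apart in 5 of the 6, against 8.63%. Since these differences were in view when the genes were picked, the counts describe the choice and support nothing further. The genotype comparison in untreated mice and the averaged one share their arrays.

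**Figure D1:**
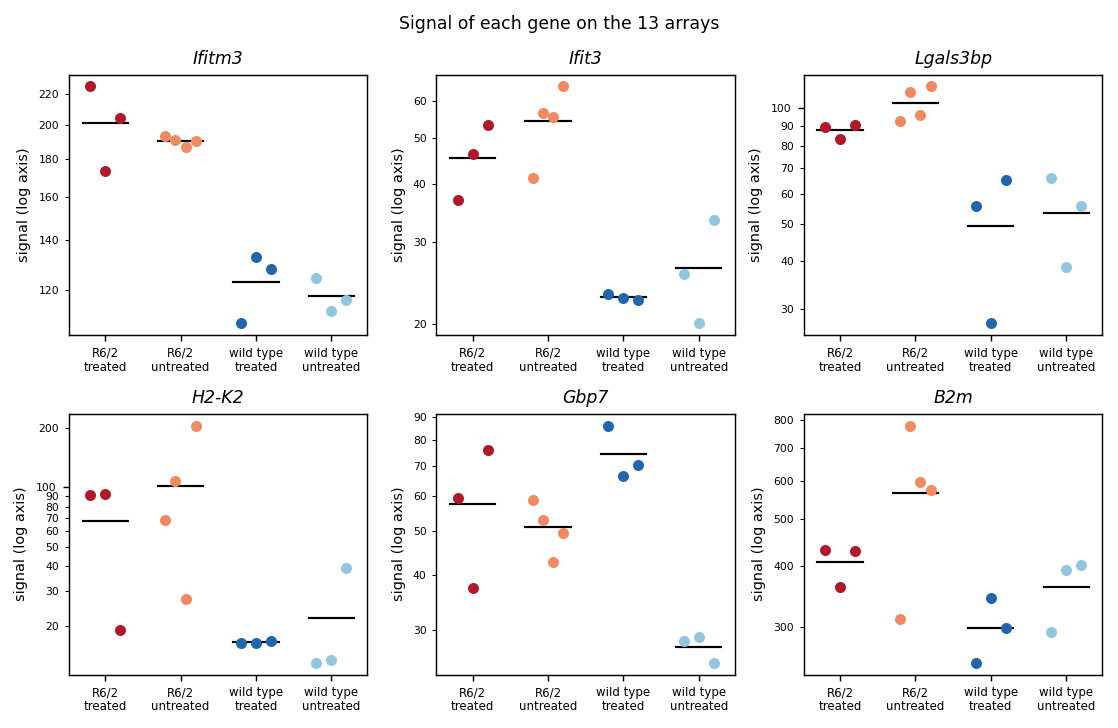
Signal of each gene on every array (log axis, a scale per panel), with treated and untreated R6/2 arrays left of treated and untreated wild type arrays; points are arrays and lines are group means. Ifitm3, Ifit3 and Lgals3bp separate the genotypes without overlap, and Gbp7 is lowest in the 3 untreated wild type arrays (25.4 to 29).

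Ifitm3 (probe set 160253_at, chr7:141009590-141010744) encodes a membrane protein that blocks entry of enveloped viruses from endosomes. Its signal was 225.3, 173.2 and 204.3 in treated R6/2 mice and 193.2, 190.6, 186.7 and 190.4 in untreated R6/2 mice. In wild type mice it was 108.1, 132.6 and 127.9 with treatment and 124.3, 112.5 and 116.1 without. Every R6/2 array was thus above every wild type array, and the untreated R6/2 arrays were nearly level, arrays 2 and 3 included. The averaged genotype difference was 0.70 (SE 0.09), a 1.63-fold higher signal, with 0.71 in treated and 0.69 in untreated mice. Leaving out any single array kept the averaged difference between 0.66 and 0.75.

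Ifit3 (93956_at, chr19:34583119-34588982; the promoter table takes a start inside this span) encodes a tetratricopeptide repeat protein of the antiviral IFIT family. Signals were 36.8, 46.2 and 53.3 in treated R6/2 mice and 41.1, 56.7, 55.4 and 64.5 in untreated R6/2 mice, against 23.2, 22.8 and 22.6 in treated and 25.6, 20.1 and 33.5 in untreated wild type mice. The genotypes did not overlap, although treated R6/2 array 1 (36.8) and untreated wild type array 3 (33.5) came close. R6/2 was higher by 1.02 (SE 0.16), or 2.02-fold, averaged over treatment. Without untreated R6/2 arrays 2 and 3 this was 0.98.

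Lgals3bp (97507_at, chr11:118392747-118401959) encodes a secreted glycoprotein that binds galectins. Its signal was 89.2, 83.1 and 90.8 in treated and 92.5, 110.6, 96.1 and 114.1 in untreated R6/2 mice. Wild type mice had 55.9, 27.6 and 65.2 with treatment and 65.8, 38.7 and 55.6 without. All 7 R6/2 arrays exceeded the 6 wild type arrays, which varied more among themselves than the R6/2 arrays did. The averaged difference was 0.95 (SE 0.18), or 1.93-fold. The difference in treated mice, 0.91 (SE 0.27), was 0.54 without treated wild type array 2, the lowest of all.

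Gbp7 (100880_at, chr3:142530336-142550151) encodes a guanylate-binding protein, a GTPase that interferon gamma induces strongly. Signals were 59.4, 37.4 and 75.9 in treated R6/2 mice and 58.9, 53.1, 42.7 and 49.5 in untreated R6/2 mice. Treated wild type mice had 86.2, 66.4 and 70.4, and untreated wild type mice 28.4, 29 and 25.4. The untreated wild type arrays were below the other 10 arrays, and treated wild type and treated R6/2 arrays overlapped. In wild type mice the treated signal was higher by 1.42 (SE 0.23), or 2.68-fold, and in R6/2 mice the treatment difference was 0.12 (SE 0.22). The genotype difference was therefore positive in untreated mice at 0.88 (SE 0.22) and negative in treated mice at -0.42 (SE 0.23). The value in treated mice ran from -0.65 to -0.14 as single arrays were left out. The difference between the treatment effects of R6/2 and wild type mice was -1.30 (SE 0.32), between -1.53 and -1.02 on leaving out any array. These Gbp7 differences share arrays with each other.

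B2m (93088_at, chr2:122147687-122153082) encodes beta-2-microglobulin, the light chain that every classical class I molecule needs to reach the cell surface. Its signal was 431.2, 361.9 and 428.7 in treated R6/2 mice and 311.6, 778.7, 594.7 and 572.9 in untreated R6/2 mice. It was 252.8, 344.4 and 298.3 in treated and 292.6, 393.0 and 401.6 in untreated wild type mice. Among treated mice the genotypes did not overlap, and among untreated mice R6/2 array 1 lay inside the wild type range. The highest signals of all were in R6/2 arrays 2 and 3, the pair that stood apart over all genes. The difference in untreated mice was 0.58 (SE 0.24) with these arrays and 0.24 without them, and the averaged difference was 0.52 (SE 0.17) with and 0.35 without them.

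H2-K2 (93714_f_at, chr17:33974659-33978791) is listed by RefSeq as a transcribed pseudogene of the class I region, and its probe set is of the kind that can match several members of a gene family, so which class I transcript it read is uncertain. A further 2 probe sets carry H2-K2 together with other genes and were not used. Signals were 91.8, 92.2 and 19.1 in treated R6/2 mice and 68.1, 107.3, 27.4 and 204.3 in untreated R6/2 mice. Wild type mice had 16.5, 16.4 and 16.8 with treatment and 13.1, 13.5 and 39.2 without. The R6/2 arrays spread from 19.1 to 204.3, and the wild type arrays were low except untreated array 3, which exceeded R6/2 arrays treated 3 and untreated 3. R6/2 was higher by 1.89 (SE 0.46) averaged over treatment, which is 3.71-fold. The untreated difference was 2.07 (SE 0.63), and 2.63 without untreated R6/2 arrays 2 and 3.

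Treatment differences of the 6 genes in R6/2 mice are likewise given without a test. In limma, with Benjamini-Hochberg adjustment, 0% of all 7453 probe sets passed 0.05 in this comparison, although 1262 (16.9%) had an unadjusted p under 0.05. Treated minus untreated was 0.07 (SE 0.12) for Ifitm3 and -0.26 (SE 0.22) for Ifit3. Lgals3bp had -0.23 (SE 0.25), with all 3 treated arrays (83.1 to 90.8) under the 4 untreated ones (92.5 to 114.1), an arrangement that 5.65% of all probe sets showed in that direction. Gbp7 had 0.12 (SE 0.22), B2m -0.40 (SE 0.24) and H2-K2 -0.55 (SE 0.63). The B2m value was -0.06 without untreated arrays 2 and 3. H2-K2 ran from -1.07 to 0.20 as single arrays were left out, so its direction depends on the arrays used. For the 5 genes other than Gbp7, the treatment effect in R6/2 mice minus that in wild type mice lay between -0.35 and 0.01, and 0% of all probe sets passed in that comparison (1003 at an unadjusted p under 0.05).

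**Figure D2:**
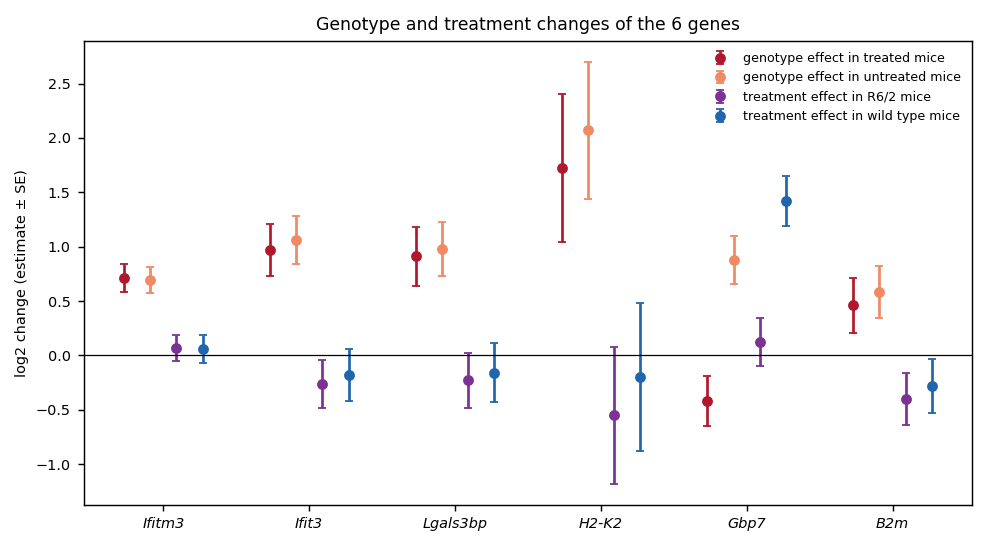
Log2 differences (points, with bars of 1 SE) of the 6 genes for genotype in treated and untreated mice, R6/2 minus wild type, and for treatment in R6/2 and wild type mice, treated minus untreated. Genotype points lie between 0.46 and 2.07 except Gbp7 in treated mice at -0.42, and Gbp7 in wild type mice at 1.42 is the sole treatment difference above 0.12.

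Other genes of the pathway were taken from lists of 183 interferon and MHC genes, chosen with earlier results of these arrays known. Of these, 121 had a probe set of their own and 59 passed the filter on low signal. Averaged over treatment, 3 of the 59 rose in R6/2 and 1 fell, which is 6.78% against 6.61% of all probe sets tested. Those that rose were 5.08% of the 59, against 2.58% of all. Of the 59 estimates 47 (79.7%) were above 0, against 56.5% of all, with a median of 0.13 against 0.04 for all. In untreated mice 4 rose (6.78% against 5.49% of all) and 1 fell, together 8.47% against 11.9%. In treated mice none rose and 1 fell, 1.69% against 0.792%. These shares rest on at most 5 genes.

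Of the signalling genes, Irf9, a DNA-binding factor of the type I interferon response, rose. Its signal was 77.3, 100.3 and 115.5 in ascending order in treated R6/2 mice, with 111.6 to 143.8 in untreated R6/2 mice, against 58.8 to 89.5 in treated and 55.6 to 76.4 in untreated wild type mice. The difference was 0.66 (SE 0.13, limma adjusted p = 0.00860) averaged over treatment and 0.90 (SE 0.18, adjusted p = 0.0107) in untreated mice. The averaged call held in all 13 fits that left out an array, and when both R6/2 arrays that stood apart were omitted (adjusted p = 0.0289). In untreated mice it was lost without wild type untreated array 2 (adjusted p = 0.0590) and without that R6/2 pair (0.0751). Of the 20 tested genes for ligands, receptors and signalling, 19 did not pass in the averaged comparison.

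Tbk1, a kinase downstream of nucleic acid sensors, rose in untreated R6/2 mice, where its signal was 179.7 to 230.1 against 135.0 to 160.1 in untreated wild type mice (0.46, SE 0.13, limma adjusted p = 0.0346). That call was lost without any of the 3 untreated wild type arrays or untreated R6/2 array 2 or 3, with adjusted p up to 0.134, and with both of these R6/2 arrays omitted the difference was 0.30 (adjusted p = 0.214). Il18, a cytokine that stimulates interferon gamma production, fell in treated R6/2 mice, with 32.9 to 35.6 against 59.8 to 61.2 in treated wild type mice (-0.82, SE 0.17, adjusted p = 0.0408). The Il18 call held without untreated R6/2 array 1, 3 or 4 and was lost without each of the other 10 arrays in turn, with adjusted p up to 0.131, although its difference stayed between -0.84 and -0.79. The averaged Il18 difference, -0.37 (SE 0.12, adjusted p = 0.0790), passed with the R6/2 pair omitted (-0.48, adjusted p = 0.0244). Of the 11 interferon ligand genes listed, 9 had a probe set and 3 passed the filter, with signals between 0.300 and 74.5.

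Among 13 tested interferon-stimulated genes, Trim25, a ubiquitin ligase that activates the RNA sensor RIG-I, rose (0.65, SE 0.16, limma adjusted p = 0.0282, averaged) and 12 did not pass. Its signal was 38.8 to 48.4 in treated and 37.5 to 53.8 in untreated R6/2 mice, against 21.2 to 36.7 in treated and 23.4 to 30.8 in untreated wild type mice. The call was lost without untreated R6/2 arrays 2 and 3 (adjusted p = 0.0975). It was also lost, with adjusted p up to 0.0746, without wild type untreated array 1 or 3, wild type treated array 3, R6/2 untreated array 2, or R6/2 treated array 1 or 3. In untreated mice alone Trim25 was at the threshold (0.72, SE 0.22, adjusted p = 0.0499), a call that 3 of the 13 fits without an array retained. Isg15, a ubiquitin-like modifier, had a larger averaged estimate that did not pass (0.98, SE 0.37, adjusted p = 0.123), with overlapping groups. Ifih1, the RNA sensor MDA5, had 0.55 (SE 0.22, adjusted p = 0.146).

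Weaker probe sets of the same list were left out by the filter on low signal and were singled out after their values had been seen. Ifit1, a neighbour of Ifit3 in the same family, had a signal of 25, 13 and 19.7 in treated and 26.5, 40.4, 36.6 and 19.0 in untreated R6/2 mice. In wild type mice it had 2.1, 3.8 and 3.7 with treatment and 5.5, 2.2 and 2.2 without, at or near the floor of 3.1. With no filter, its averaged difference was 2.68 (SE 0.24, limma adjusted p = 0.000335 over 12422 probe sets), and it passed in treated (2.40, SE 0.34, adjusted p = 0.0160) and in untreated mice (2.97, SE 0.32, adjusted p = 0.00249). The size of these differences and their SE depend on the floor, to which the values under it were raised. Usp18, a protease that removes ISG15 and damps interferon receptor signalling, had 15.3, 17.6 and 17.4 in treated and 12.2, 14.2, 19.2 and 24 in untreated R6/2 mice, against 2.8, 2.8 and 6.9 in treated and 2.3, 4.1 and 10.8 in untreated wild type mice. Its averaged difference with no filter was 1.88 (SE 0.32, adjusted p = 0.0127), with wild type values under the floor raised to it. For Ifit1 and Usp18 every R6/2 array was above every wild type array, as for 1.44% of the 7453 probe sets above the filter. The share over all 12422 was not taken. Of the list probe sets under the filter, Ifit1, Usp18 and H2-Ea passed in the averaged comparison with no filter, H2-Ea lower in R6/2. Ifit2 had 0.85 (SE 0.37, adjusted p = 0.258) with no filter. Other weak probe sets varied. Isg20 (group means 3.10 to 3.73, near the floor) and Plscr1 (11.9 to 15.1) were nearly level. Ifi27l2a had means of 21.6 in treated and 22.5 in untreated R6/2 mice, against 12.9 and 11.3 in wild type mice. Ifitm2 (24.5 and 19.2 against 28.7 and 15.1, in the same order) and Ifi204 (9.67 and 13.8 against 21.0 and 8.90) were highest in treated wild type mice.

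Genes of the interferon gamma list other than Gbp7 comprised Irgm1, Irgm2, Gbp3, Ido1 and Upp1 among tested probe sets, and none of the 5 passed in any comparison. Irgm1 and Irgm2 encode immunity-related GTPases and Gbp3 a relative of Gbp7. Treated wild type arrays were above untreated ones in 5 of 5 estimates (median 0.45), without overlap in 4 of them, against 11.4% of all probe sets that were apart in this direction. Gbp3 had 48.6, 45.2 and 48.6 in treated against 14.1, 34.5 and 17.2 in untreated wild type mice (1.22, SE 0.59, limma adjusted p = 0.487). In a sum of signals over a list, bright probe sets weigh most. Group means of Ly6e alone were 907 to 1057 among interferon-stimulated genes, and those of Upp1 105 to 142 in the interferon gamma list. Sums were also set out for untreated wild type mice against the other groups together, the arrangement that Gbp7 showed. That split was not a fitted comparison, and the share of all probe sets that show it was not taken. The summed signal of the 14 probe sets of the interferon gamma list was 311.3 to 466.3 in the other groups and 256.0 to 279.1 in untreated wild type mice. The 35 probe sets of the ligand, receptor and signalling list summed to 1600 to 1797 and to 1493 to 1497 in the same order. The other 4 lists overlapped, with 1788 to 2268 in the other groups and 1797 to 1974 in untreated wild type mice for interferon-stimulated genes, 924.8 to 1521 and 873.9 to 1122 for class I, 934.4 to 1196 and 855.3 to 1074 for antigen processing, and 341.5 to 481.7 and 382.9 to 430.5 for class II. Over the 59 tested genes of all lists, 15 (25.4%) were higher without overlap in treated than in untreated wild type mice, and 0 passed the test, as for all 7453 probe sets (0%, with 769, or 10.3%, at an unadjusted p under 0.05).

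**Figure D3:**
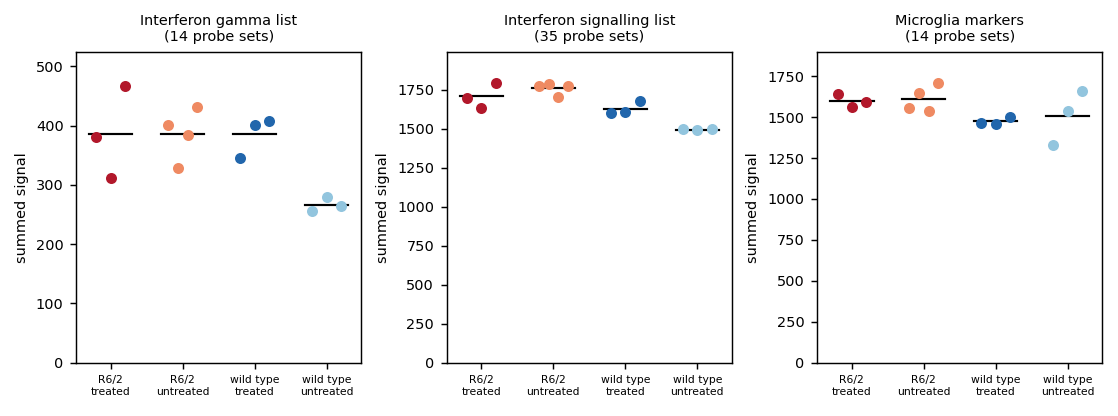
Summed signal (linear axis from 0) per array of the interferon gamma list, the interferon ligand, receptor and signalling list and the microglia markers, members left out; points are arrays, lines are group means, with R6/2 left of wild type. The 3 untreated wild type arrays are lowest in the first panel (256.0 to 279.1) and in the second (1493 to 1497), and the groups overlap in the third, as they did in the 4 interferon and MHC lists not drawn. Bright probe sets weigh most in each sum, and how often untreated wild type arrays are lowest over all probe sets was not taken.

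Of the other class I genes, none of the 8 tested passed in any comparison, and 7 of the 8 averaged genotype estimates were above 0 (median 0.20), against 56.5% of all probe sets. H2-K1, a classical class I heavy chain, had 316.3, 280.2 and 427.9 in treated and 270.5, 293.2, 191.5 and 337.1 in untreated R6/2 mice, against 265.0, 339.3 and 388.8 in treated and 195.3, 242.7 and 247.2 in untreated wild type mice. Its genotypes overlapped in treated mice, and in untreated mice through R6/2 array 3 (191.5) alone, an array of the pair that stood apart. H2-D1, the other classical heavy chain, had an averaged difference of 0.21 (SE 0.16, limma adjusted p = 0.453). H2-Bl, a class I gene, had 0.41 (SE 0.19, adjusted p = 0.206), and passed without untreated R6/2 arrays 2 and 3 (0.55, adjusted p = 0.0191). Class I sequences are alike, and how the probes divide among them was not tested.

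Of 8 tested antigen processing genes, Psme1, a subunit of the interferon-inducible proteasome activator PA28, rose (0.42, SE 0.11, limma adjusted p = 0.0312) and 7 did not pass. Psme1 had 110.2 to 149.6 in treated and 133.3 to 146.7 in untreated R6/2 mice, against 86.5 to 116.5 in treated and 88.5 to 110.2 in untreated wild type mice. That call was lost without untreated R6/2 arrays 2 and 3 (adjusted p = 0.0758). It was also lost, with adjusted p up to 0.0903, without wild type untreated array 1 or 2, wild type treated array 1 or 2, R6/2 untreated array 2, or R6/2 treated array 1 or 2. In untreated mice it was near the threshold (0.47, SE 0.15, adjusted p = 0.0492) and held in 3 of the 13 fits without an array. Tap1, a subunit of the transporter that carries peptides to class I, had 0.38 (SE 0.15, adjusted p = 0.147).

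Class II genes serve presentation to CD4 T cells. Of the 5 tested, H2-DMa, a chain of the peptide-exchange factor DM, fell (-0.39, SE 0.10, limma adjusted p = 0.0250, averaged; -0.58, SE 0.13, adjusted p = 0.0160, in untreated mice), and the other 4 did not pass in any comparison. Its adjusted p without the pair of R6/2 arrays that stood apart was 0.0587 averaged and 0.107 in untreated mice. The averaged call was lost, with adjusted p up to 0.0656, without wild type untreated array 2 or 3, wild type treated array 3, R6/2 untreated array 2, or R6/2 treated array 1 or 3, and the untreated call without wild type untreated array 2 or 3 (up to 0.0654). H2-Eb1, a class II beta chain, had 0.75 (SE 0.36, adjusted p = 0.224), and Cd74, the invariant chain, had 0.11 (SE 0.17, adjusted p = 0.737).

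**Figure D4:**
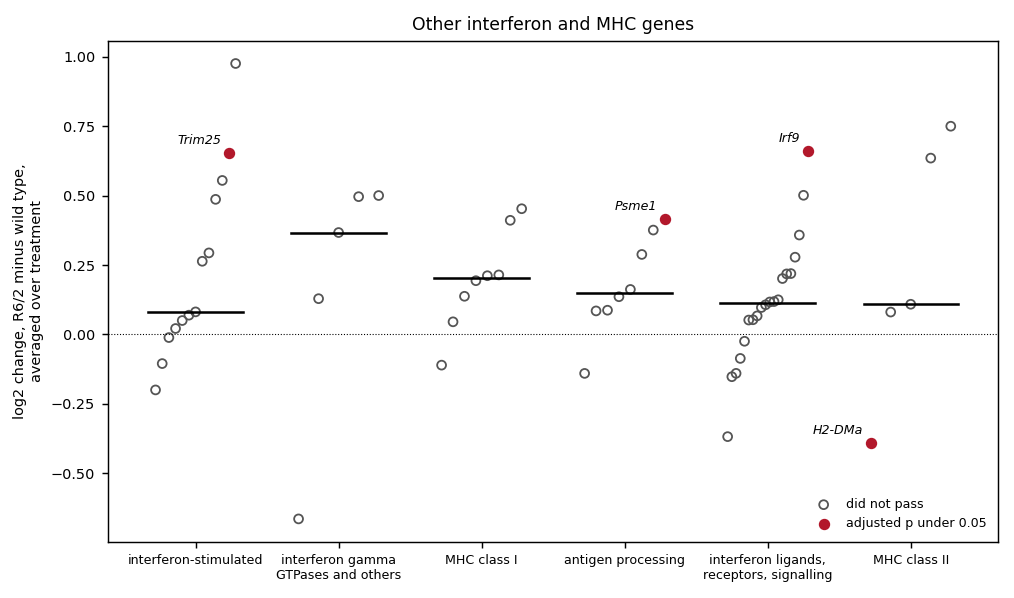
Log2 difference of R6/2 minus wild type, averaged over treatment, for each tested gene of the 6 lists, members left out; filled points passed an adjusted p of 0.05, open points did not, and lines are list medians. Irf9 (0.66), Trim25 (0.65) and Psme1 (0.42) rose and H2-DMa (-0.39) fell.

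Markers of the cells that could carry these transcripts were set beside them. Over all probe sets tested, 2.58% rose and 4.04% fell in the averaged comparison. In untreated mice 5.49% rose and 6.41% fell. All 9 neuron markers with a probe set passed the filter, as the labelled tissue would have it. Of 18 microglia and macrophage markers, 14 had a probe set and 10 were tested, with Aif1, Itgam, Fcer1g and Cd53 under the filter. Mean signal of Cd53 was 26.1 in treated and 36.0 in untreated R6/2 mice, against 15.7 and 19.3 in wild type mice. Its genotypes did not overlap in untreated mice and overlapped in treated mice. Mean signal of Aif1 was lower in R6/2, at 16.0 and 8.62 against 18.6 and 13.7 in the same order, with overlapping genotypes in treated and in untreated mice. Group means of Itgam and Fcer1g lay between 2.37 and 10.7. These weak markers were not tested. Ctss, the lysosomal protease cathepsin S, rose (0.55, SE 0.13, limma adjusted p = 0.0184, averaged), and the other 9 tested did not pass. Of the 10 estimates 2 were above 0, against 56.5% of all probe sets. The Ctss call was lost without wild type untreated array 1 (adjusted p = 0.0504). Ctss had 416.1 to 466.4 in treated and 379.0 to 680.1 in untreated R6/2 mice, against 328.0 to 344.9 in treated and 269.0 to 371.6 in untreated wild type mice. The summed microglia signal was 1535 to 1707 in R6/2 and 1330 to 1661 in wild type mice, which overlapped. Endothelial markers (472.7 to 571.4 in R6/2, 455.4 to 584.1 in wild type) and T, B and NK cell markers (196.9 to 269.0 in R6/2, 189.1 to 246.3 in wild type) overlapped as well, and none of them passed; 10 of the 13 lymphocyte probe sets were under the filter. Oligodendrocyte markers did not overlap, at 2101 to 3306 in R6/2 and 3523 to 4075 in wild type mice, and 3 of 5 (Mbp, Mobp and Mal) fell, with or without untreated R6/2 arrays 2 and 3. The Mobp and Mal calls held whichever array was left out, and the Mbp call was lost, with adjusted p up to 0.0699, without wild type untreated array 1 or 2, wild type treated array 2, or R6/2 treated array 1 or 3. Astrocyte markers summed to 2867 to 3379 in R6/2 and 3358 to 3764 in wild type mice, with 1 of 7 (Aldoc) fallen, and neuron markers to 7132 to 8344 in R6/2 and 8030 to 9029 in wild type mice, with 2 of 9 (Eno2 and Nefm) fallen. Those 3 calls were lost without any of several arrays in turn, with adjusted p up to 0.0646 for Aldoc, 0.0825 for Eno2 and 0.0945 for Nefm. Omitting the R6/2 pair added Syp to the fallen neuron markers in the averaged comparison (adjusted p = 0.0315). In untreated mice Syp, a synaptic vesicle protein, fell (-1.29, SE 0.21, adjusted p = 0.00370) whichever array was left out, and Map2 (adjusted p = 0.0207) and Eno2 (0.0343) fell too. Also in untreated mice, Aldoc and Slc1a2 of 7 astrocyte markers and Mbp, Mobp and Mag of 5 oligodendrocyte markers fell, a second Stmn2 probe set rose (0.57, SE 0.13, adjusted p = 0.0152), and Ctss rose (0.72, SE 0.17, adjusted p = 0.0198). With the pair omitted, only Syp and Mobp of these untreated marker calls held. Red blood cell markers summed to 904.4 to 2146 in R6/2 and 995.2 to 3525 in wild type mice, and of 3 tested Alas2, a heme synthesis enzyme, fell in untreated mice (-1.52, SE 0.40, adjusted p = 0.0302, and 0.142 with the pair omitted). The Alas2 call was lost, with adjusted p up to 0.0796, without wild type untreated array 1 or 2 or R6/2 untreated array 2. It was also lost with no filter (adjusted p = 0.0819). Mean Alas2 signal in untreated R6/2 mice (19.3) and treated wild type mice (21.8) lay under the filter signal of 24.88. The part of these shifts in the values of the interferon genes was not tested.

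Over the 13 arrays, the log2 signals of Ifitm3, Ifit3 and Lgals3bp had Pearson correlations of 0.76 to 0.85 with each other, and Gbp7 had -0.13 to 0.28 with the other 5 genes. Among all kept probe sets of other genes, the 3 most like Ifitm3 were Atad2b (0.92), Slc1a4 (0.90) and Vcp (0.90), and those most like Ifit3 were Nampt (0.92), Ociad1 (0.90) and Acyp2 (0.90). Lgals3bp was followed by Rgs19 (0.89), Irf9 (0.88) and Cenpc1 (0.85), and B2m by Ccar1 (0.93), Med28 (0.88) and Acyp2 (0.88). Those nearest to Gbp7 were Sf3b3 (0.91), Krt2 (0.90) and Bphl (0.88), and those nearest to H2-K2 were Apod (0.86), Prpsap1 (0.85) and Stag2 (0.84). The arrays share genotype, treatment and scaling, so these correlations are descriptions.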

How the data were processed

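RNA of mouse brain hemispheres was measured on Affymetrix MG-U74Av2 arrays. The table deposited by the authors holds linear intensities in which each array has a mean of about 100 after trimming 2% at each end (100.047 to 100.128). The software that made them is not given in the sources used here. Array medians lay within 6.73% of their mean, under the 10% set as the limit, so no further normalization was applied. Values under 3.1 (the 10th percentile) were raised to it and log2 was taken. Of 12488 rows, 66 controls were left out, and of 12422 gene probe sets the 7453 at or above the 40th percentile of mean log2 (a signal of 24.88) were tested. The annotation names a single gene for 10833, several for 396 and none for 1193, and 10817 of the single genes matched RefSeq.

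A mean per group was fitted over 13 arrays in limma 3.58.1 (R 4.3.3), with trended empirical Bayes variances and Benjamini-Hochberg adjustment at 0.05. The code was tested on simulated data. Comparisons were genotype averaged, in untreated and in treated mice, treatment in each genotype, and the interaction. A gene with several probe sets was represented by its brightest.

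The members and lists were chosen with earlier results of these data known. Named list genes are those past the threshold and the 4 with the smallest p per list in the averaged genotype comparison, of which some are described; likeness used the 3 highest correlations. Ifit1, Ifit2 and Usp18, H2-K1, Gbp3 in wild type mice and some marker genes were described after their values were seen. Alternatives were a floor 2 times as high, no filter, quantile normalization, array weights, leaving out arrays, and the lot label as a block.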

Additional observations from a re-analysis of the deposited data

Results flagged for a closer look

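In 56 groups of 4 arrays checked with Dixon's ratio, 2 held an array far from the others at the 95% critical value of 0.829, and chance flags about 1 group in 20. The interferon-induced gene Ifi27 (93775_at) had 319.9 in its highest untreated R6/2 array against 184.1, 200.2 and 206.1 in the others. The myelin gene Mbp (96311_at) had 932.6 in its lowest untreated R6/2 array against 1472, 1474 and 1562. None of the 6 genes described was set apart in this way in untreated R6/2 mice, the only group with 4 arrays. Groups of 3 arrays were not checked.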

How the results depend on the processing

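Most estimates for the 6 genes moved by less than the residual SD of their probe set. Those that moved further were of Lgals3bp without treated wild type array 2, whose treatment difference in wild type mice became 0.21 with the opposite sign (range -0.41 to 0.21 over single arrays left out), its genotype difference in treated mice 0.54 and its interaction -0.44. B2m moved by less than its residual SD without untreated R6/2 arrays 2 and 3, but by more than the SE of 0.24 in 2 comparisons. These were genotype in untreated mice, from 0.58 to 0.24, and treatment in R6/2 mice, from -0.40 to -0.06. Its interaction turned in sign, from -0.12 (SE 0.35) to 0.22. Counts of probe sets past the threshold moved more. With array weights they were 932 for averaged genotype, 208 for genotype in treated mice and 120 for treatment in wild type mice, with 7 higher list genes in the averaged comparison and 1 for treatment in wild type mice. With no filter they were 512 for genotype in untreated mice, 1 for treatment in R6/2 mice and 2 for treatment in wild type mice, and of the 59 list genes 2 were higher in untreated mice. Quantile normalization also left 2. Without untreated R6/2 arrays 2 and 3 the counts were 167 for untreated and 119 for treated genotype, 1 for R6/2 and 8 for wild type treatment, with 0 list genes higher in untreated mice. Counts with everything included were 493 averaged, 887 untreated, 59 treated and 0 for both treatment comparisons. For the interaction the count was 0 as well, with 1003 at an unadjusted p under 0.05. Leaving out single arrays gave 263 to 705 for averaged, 156 to 1301 for untreated and 20 to 97 for treated genotype. It gave 0 to 116 for R6/2 treatment, 0 to 6 for wild type treatment and 0 for the interaction. Higher list genes then numbered 1 to 4 averaged, 0 to 4 untreated and 0 treated. The causes were not tested, apart from the fewer arrays or more probe sets that these settings use. The lot label as a block could not be fitted, since its correlation could not be estimated from 1 shared label. No paired analysis was possible because the replicate numbers were given in accession order and pair no samples. Small groups and signals near the floor limit the precision.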

Other observations

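Of 121 list probe sets fitted with no filter, H2-Ea (102904_at), a class II alpha chain, also passed in the averaged genotype comparison (-0.72, SE 0.16, limma adjusted p = 0.0411). Its signal was 3.5, 2.7 and 2.5 in treated and 2.5, 4.6, 2.7 and 4.5 in untreated R6/2 mice, against 5.9, 6.2 and 5.1 in treated and 5.7, 4.1 and 8.0 in untreated wild type mice. All are near the floor of 3.1, and the R6/2 values of 2.5 and 2.7 were raised to it. Raising them narrows the spread within R6/2, and with it the SE. Treated R6/2 array 1 and untreated R6/2 array 4, which share a lot label, differed by 0.24 in Ifitm3, -0.81 in Ifit3, -0.36 in Lgals3bp, -1.15 in H2-K2, 0.26 in Gbp7 and -0.41 in B2m (log2, treated minus untreated).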
